A study of Homo sapiens with 10 samples.

Results

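The cytosolic heat shock chaperones were followed as a set of 35 genes in HEK293T cells, out of 78894 gene identifiers in the deposited table. The set is a list of gene symbols, and each symbol matched 1 identifier. It holds the heat shock factors HSF1 and HSF2, the HSP70 and HSP110 chaperones, the HSP90 pair, small heat shock proteins, J proteins, cochaperones, the collagen chaperone SERPINH1, the ubiquitin gene UBB and 7 subunits of the CCT chaperonin. HSPA1A and HSPA1B were added together into 1 feature because their sequences are nearly identical. Of the 35 genes, 34 were kept after a filter on low values, which asked for normalized counts of at least 10 in 3 or more libraries, and this gave 33 features to test. CRYAB, a small heat shock protein, did not pass: its normalized counts lay between 0 and 11.05.

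HEK293T is an established, transformed human embryonic kidney line, and all libraries came from this line without any genetic change named in the labels. Poly(A) RNA was sequenced after 24 h in medium without cysteine (0X, 2 libraries, called cysteine-free), with the usual cysteine (1X, 4 libraries, called complete) or with 10 times that amount (10X, 4 libraries, called excess). The labels call the libraries of a group biological replicates, and no batch is named. The study gives another number of replicates for cysteine-free against complete medium than the labels do, and the labels were followed, so every n and p of that comparison rests on them. The study's cell culture methods describe washed cells given fresh medium, all of it built from a medium lacking cysteine and methionine with methionine added back. Its starvation release assay instead gave control cells complete DMEM, and starved cells a cystine-free medium with dialyzed serum and added glutamine, methionine and glucose. The RNA-seq methods refer to the starvation treatment without saying which of these was used. Serum and base medium may thus differ between groups, and their part was not tested. The libraries held between 34836014 and 61654861 reads on genes. Mitochondrial genes took 4.51% to 5.05% of reads in complete medium, 5.15% to 5.71% in cysteine-free medium and 0.117% to 0.146% in excess medium, a difference that moved with the excess group and whose part in the results below was not tested. Of 8 genes typical of this line, all were detected in every library, from PAX2 (lowest value 103.2) to VIM (lowest value 25564). Among genes the culture should lack, the leukocyte gene PTPRC stayed at 4.36 or below. The endothelial gene PECAM1 lay between 4.56 and 13.6, and the hepatocyte gene ALB between 3.40 and 21.0. The astrocyte gene GFAP, listed as one the culture should lack, had values of 170.2 to 222.5.

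Heat shock proteins are chaperones, which bind unfolded or newly made proteins and help them fold. HSP70 proteins work in cycles driven by ATP, with J proteins delivering substrates and BAG and HSP110 proteins exchanging the nucleotide. HSP90 takes over later substrates such as kinases and steroid receptors with the help of cochaperones, and the CCT ring folds actin and tubulin. The transcription factor HSF1 is held inactive by chaperones in unstressed cells; when unfolded proteins accumulate it forms trimers, binds heat shock elements and drives transcription of many of these genes, with HSPA1A and HSPA1B among the most inducible.

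Heat shock elements are inverted repeats of the unit GAA, so the regions before the gene starts were searched for GAANNTTCNNGAA and TTCNNGAANNTTC (3 units) and for GAANNTTC and TTCNNGAA (2 units). These patterns cover both strands, and every match to 3 units also holds a match to 2. The search used the 250 bases before each RefSeq start on GRCh38.p14. Of the 35 genes, 31 had at least 1 start in the RefSeq table, and CRYAB, FKBP4, HSF1 and STUB1 had no entry. A 3-unit match was present for 6 of the 31 genes, or 19.4%, against 0.557% of the 27305 genes listed by RefSeq. A 2-unit match was present for 17 of the 31, or 54.8%, against 14.0% of all genes. The 31 genes had 47 starts and 35116 starts were searched in all. A match describes letters only and does not show binding.

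The HSPA1A and HSPA1B promoters are shown because this pair had the largest change of the set. Taken as a sum, it also had the highest level per exon length in complete medium. HSPA1A (ENSG00000204389) lies on chromosome 6 of GRCh38 from 31815543 to 31817946, and HSPA1B (ENSG00000204388) starts 9792 bases further on, from 31827738 to 31830254. Both are on the plus strand, and each is a single exon. The sequences below run 5′ to 3′ on the plus strand over the 250 bases before each start (chr6:31815293-31815542 for HSPA1A and chr6:31827488-31827737 for HSPA1B), with capitals marking the 2-unit match. In a global alignment 235 of 250 bases were identical (94.0%), the match among them.
HSPA1A: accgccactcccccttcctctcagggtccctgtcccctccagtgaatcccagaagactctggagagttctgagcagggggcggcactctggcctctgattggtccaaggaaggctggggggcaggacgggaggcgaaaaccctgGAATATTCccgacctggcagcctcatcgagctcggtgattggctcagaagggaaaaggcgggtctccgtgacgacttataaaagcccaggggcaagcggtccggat
HSPA1B: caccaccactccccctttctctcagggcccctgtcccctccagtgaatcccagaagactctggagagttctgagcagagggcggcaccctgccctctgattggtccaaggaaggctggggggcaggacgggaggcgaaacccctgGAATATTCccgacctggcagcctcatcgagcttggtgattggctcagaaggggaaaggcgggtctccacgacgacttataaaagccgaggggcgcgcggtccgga

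The 6 genes with a 3-unit match are shown with 8 bases on either side of it, written on the strand of the gene, with the match in capitals. HSPA8 and HSP90AB1 each had 2 separate matches, and CHORDC1 had 3 that overlap. They are the constitutive HSP70 (HSPA8, chr11:123062171-123062199 and chr11:123062346-123062374, minus strand), both HSP90 genes (HSP90AA1, chr14:102087112-102087140, minus strand; HSP90AB1, chr6:44247770-44247798 and chr6:44247823-44247851, plus strand), a J protein (DNAJB6, chr7:157336865-157336893, plus strand), an HSP90 cochaperone (CHORDC1, chr11:90223079-90223117, minus strand) and SERPINH1 (chr11:75562169-75562197, plus strand). The HSPA8 and SERPINH1 matches lie inside annotated exons of the same gene.
HSPA8, nearer match: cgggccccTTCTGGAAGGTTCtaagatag
HSPA8, farther match: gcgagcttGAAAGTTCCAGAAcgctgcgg
HSP90AA1: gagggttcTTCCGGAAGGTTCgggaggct
HSP90AB1, farther match: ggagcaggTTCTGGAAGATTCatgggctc
HSP90AB1, nearer match: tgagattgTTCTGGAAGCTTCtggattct
DNAJB6: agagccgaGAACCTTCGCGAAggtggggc
CHORDC1: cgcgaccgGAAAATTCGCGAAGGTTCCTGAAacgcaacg
SERPINH1: ttccaactTTCCAGAAGTTTCtcgggacg

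The HSPA1A and HSPA1B pair, which encodes the stress-inducible HSP70, was highest in complete medium. Its summed normalized count (reads divided by the library's size factor) was 205761, 203822, 122203 and 261274 in the 4 complete libraries. It was 43204 and 37882 in the cysteine-free libraries and 14972, 13199, 14971 and 15763 in the excess libraries. The groups did not overlap: each cysteine-free value lay below each complete value and above each excess value. The means were 198265 ± 57279 (SD, n = 4) in complete, 40543 ± 3764 (SD, n = 2) in cysteine-free and 14726 ± 1085 (SD, n = 4) in excess medium. The pair took 0.458% of all reads on genes in complete medium on average, 0.0952% in cysteine-free and 0.0366% in excess medium.

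On the scale of log2(normalized count + 1), the pair fell by 2.24 in cysteine-free against complete medium (standard error 0.194, limma, adjusted p = 4.18e-06), to 21.1% of the complete level. In excess medium it fell by 3.70 (standard error 0.146, limma, adjusted p = 2.12e-12), to 7.68%. Measured directly, the cysteine-free level was 2.75 times the excess level (log2 difference 1.46, standard error 0.0523, limma, adjusted p = 1.93e-17). Exact permutation tests of the pair alone, 2-sided, gave p = 0.067 for cysteine-free against complete and against excess medium and p = 0.029 for excess against complete medium, in each case the smallest p that the numbers of libraries allow. Both comparisons with complete medium use the same 4 complete libraries. Fitted apart, the log2 fold changes in cysteine-free medium were -2.23 for HSPA1A and -2.25 for HSPA1B, and in excess medium -3.70 and -3.71 (limma).

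HSPA1B held between 56.5% and 57.4% of the pair's value in all 10 libraries, so the division between the copies hardly moved while their sum varied widely. Of the windows of 75 bases, the length of 1 read of a pair, in the longest annotated transcripts, 73.8% of those of HSPA1A and 70.2% of those of HSPA1B occur exactly in the other gene. The level of each gene alone is uncertain for that reason, and HSPA1B also shares exon bases with an annotated gene without a symbol.

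The complete libraries differed from each other in this pair more than in most features with a mean normalized count of 1000 or more, and no set as abundant as the pair was compared. The highest complete value was 2.14 times the lowest, with a coefficient of variation of 28.9% and an SD of 0.46 on the log2 scale. In excess medium the coefficient of variation was 7.37% (n = 4) and in cysteine-free medium 9.28% (n = 2). Among the 8792 features with a mean normalized count of 1000 or more, the median SD over the complete libraries was 0.074. Of them, 15 features, the pair included, had an SD as large as that of the pair, or 0.171%. In excess and cysteine-free medium that median was 0.050 and 0.040, so abundant features in general spread most in complete medium. In those media 4.23% and 3.92% of these features had an SD as large as the pair's. Complete replicate 3 was the low library and complete replicate 4 the high one. Across features with enough reads, these libraries also differed more from each other than other complete libraries did. Their chi-square per degree of freedom was 14.8 on read counts, and that of excess replicates 1 and 4 was 14.3. Without replicate 3 the SD of the pair over the other complete libraries was 0.20, and without replicate 4 it was 0.43. The log2 fold change of the pair in cysteine-free medium was then -2.46 without replicate 3 and -2.09 without replicate 4. In excess medium it was -3.92 and -3.55, and all 4 values were called by limma.

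Several other members set complete replicate 3 apart, an observation made after the values were seen. It was below the mean of the other complete libraries by 0.86 for the pair, 0.73 for HSPA1L, 0.54 for DNAJB1, 0.26 for BAG3, 0.23 for PTGES3, 0.20 for HSPA4L and 0.19 for HSPA8, on the log2 scale. It was above them for SERPINH1 (0.46), HSPB8 (0.45) and CCT7 (0.21). Complete replicate 3 was the lowest complete library for 13 of 33 members, against 28.3% of all 29044 features, and complete replicate 1 was the highest for 22 of 33, against 26.2%. Among members with a mean of 1000 or more, replicate 3 was lowest for 12 of 30 and replicate 4 for 11. The shares of all such features were 31.3% and 39.1%, so these counts are near them. For the highest ranks no such share was taken, so the 22 of 33 has no background of like abundance. The median gap of replicate 3 to the mean of the others was -0.034 over the members. Of the 33 members, the median SD over the complete libraries was 0.076. The low value of replicate 3 was thus uneven across the set, and for HSP90AA1, HSPA4, AHSA1 and TCP1, where it was also the lowest, the gap to the mean of the others was between 0.055 and 0.070.

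Across the set, 24 of 33 members fell in cysteine-free medium and 1 rose, while 8 did not reach the threshold, an adjusted p of at most 0.01 in limma. Of all 29044 features, 15.9% were called, 8.51% lower and 7.39% higher, and of the 8792 features with a mean of 1000 or more 19.3% were called lower. The median log2 fold change was -0.52 over the members and 0.00242 over all features. All cysteine-free values lay below all complete values for 27 of 33 members, against 23.6% of all features, and above them for 2, against 23.3%. The fall reached 1 or more on the log2 scale for the HSPA1A and HSPA1B pair and for HSPA8, while 0.658% of all features were called lower by that much. No member was called higher by 1 or more, against 1.44% of all features. With 1 cysteine-free library left in the fit, its spread was taken from the complete libraries alone. Then 17 members were called without cysteine-free replicate 1 and 19 without replicate 2, and over all features the number called fell from 4618 to 1201 and 980.

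In excess medium 25 of 33 members fell and 3 rose, while 5 were not called. Of all features 46.0% were called there, 22.9% lower and 23.1% higher, so a call alone is common in this comparison. Among features with a mean of 1000 or more, 39.2% were called lower. The median log2 fold change was -0.57 over the members and 0.014 over all features. A fall of 1 or more was called for 6 members (3.73% of all features): the pair, HSPA8, HSPA1L, HSPH1, HSP90AB1 and DNAJB1. HSPB8 alone was called higher by 1 or more (6.39% of all features). All excess values lay below all complete values for 25 members, against 25.5% of all features before any call, and above them for 3, against 26.1%. Scaling each library to equal totals moved the median of all features by 0.104 in this comparison; it gave 24 members lower and 5 higher, and over all features 5196 lower and 8409 higher in place of 6650 and 6721.

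Members could be split by whether they share exon bases with another annotated gene, since such bases can affect the count. The study's methods say that reads overlapping several genes were discarded, which would remove reads from shared bases. The library kit marks strand, but whether the counting used it is not given in the sources used here. Of the 35 genes, 19 share bases and 16 do not. The 15 features that share none, the pair left out, showed a median of -0.33 without cysteine, where 10 were called lower and 1 higher, and of -0.64 in excess medium, where 12 were called lower and 1 higher. Of all features, 8.51% were called lower and 7.39% higher without cysteine, and 22.9% and 23.1% in excess medium. HSPA8, the HSP90 genes and several CCT genes also have processed pseudogenes in the genome, and it is not stated how reads matching several places were counted.

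**Figure D1:**
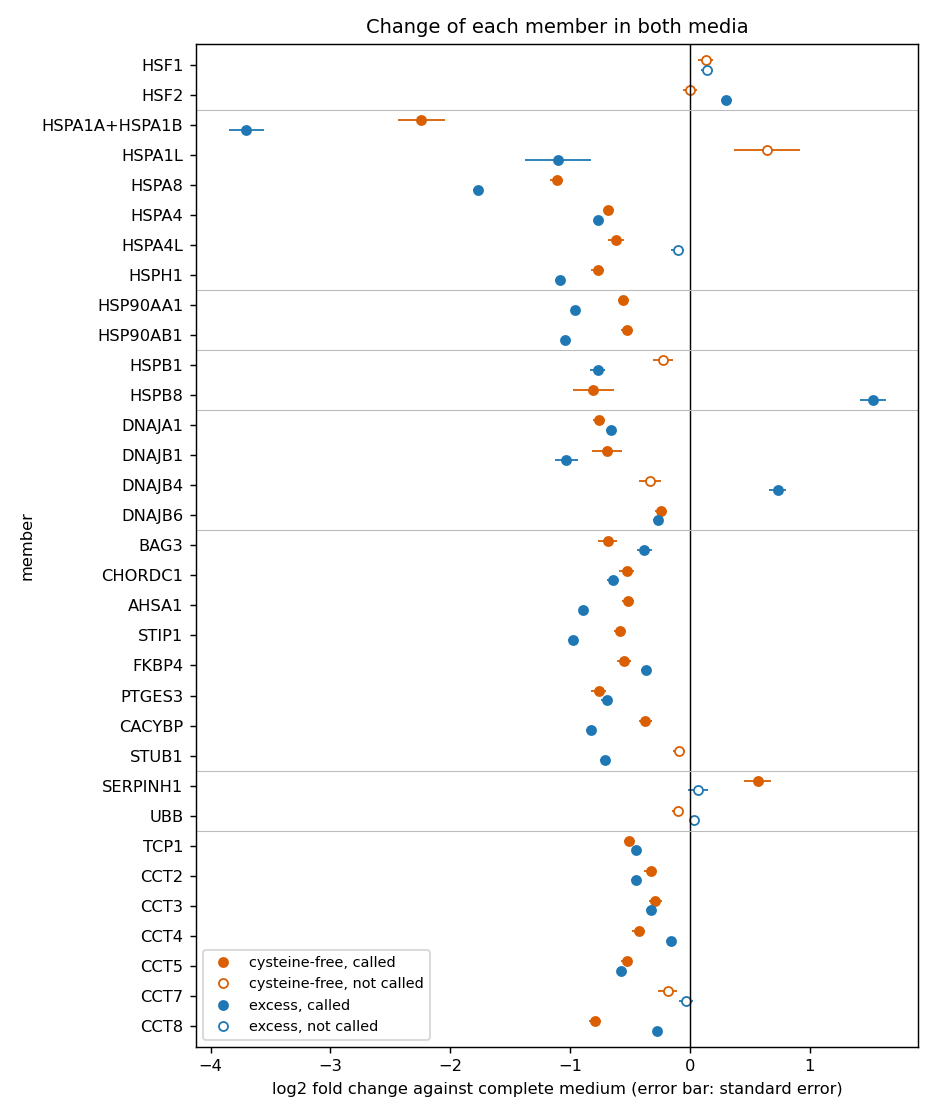
Log2 fold change of each member against complete medium in cysteine-free (orange) and excess medium (blue), with bars of 1 standard error; filled points were called by limma at an adjusted p of 0.01 or less, open points were not. Most points lie left of 0, from -3.70 for HSPA1A+HSPA1B in excess medium, and the point farthest right is HSPB8 in excess medium (1.53).

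Neither heat shock factor was called lower in cysteine-free or excess against complete medium. HSF1, the main stress-activated factor, had 3765 and 3665 normalized counts in cysteine-free medium and 3680, 3251, 3399 and 3235 in complete medium. In excess medium it had 3688, 3565, 3858 and 3879. The groups overlapped, and neither log2 fold change was called by limma: 0.13 in cysteine-free medium (adjusted p = 0.142) and 0.15 in excess medium (adjusted p = 0.0183). With equal totals the value in excess medium was 0.25 (limma, adjusted p = 1.15e-04), while leaving out complete replicate 1 gave 0.19 (limma, adjusted p = 3.52e-03). HSF1 shares exon bases with DGAT1 on the other strand.

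HSF2, a related factor that can join HSF1 in mixed trimers, had 1919 and 1980 normalized counts in cysteine-free and 2001, 1927, 1932 and 1932 in complete medium. Its excess values were 2415, 2422, 2438 and 2358, all above the other 6 libraries. It rose by 0.31 on the log2 scale in excess medium (standard error 0.0431, limma, adjusted p = 1.12e-05), and its log2 fold change in cysteine-free medium was 0.0012 (limma, adjusted p = 0.991). These are transcript levels and do not show the activity of either factor, which is set largely on the protein.

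Among the other HSP70 and HSP110 chaperones, HSPA8, the constitutive HSP70 that also uncoats clathrin vesicles, changed most. It had 80096, 77731, 69061 and 78253 normalized counts in complete medium, 35937 and 34573 in cysteine-free medium, and 22319, 22326, 22120 and 22799 in excess medium. The groups did not overlap. It fell by 1.11 in cysteine-free medium (standard error 0.0562, limma, adjusted p = 2.90e-08) and by 1.77 in excess medium (standard error 0.0406, limma), to 46.3% and 29.4% of the complete level. The cysteine-free level was 1.57 times the excess level.

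HSPH1, an HSP110 that exchanges the nucleotide of HSP70, had 10616, 10201, 9482 and 10027 normalized counts in complete, 5940 and 5892 in cysteine-free and 4834, 4869, 4591 and 4768 in excess medium. Its level was 58.7% of complete in cysteine-free medium (log2 fold change -0.77, standard error 0.0538) and 47.3% in excess medium (log2 fold change -1.08, standard error 0.0410), both called by limma. HSPA4, another HSP110, fell by 0.68 in cysteine-free and by 0.77 in excess medium. HSPA4L, enriched in testis but present here, fell by 0.61 in cysteine-free medium. In excess medium its value was -0.10 (limma, adjusted p = 0.107), against -0.15 and a call when complete replicate 3 was left out (limma, adjusted p = 6.02e-03). For HSPA4L the direct difference of cysteine-free from excess medium was -0.51 (limma, adjusted p = 6.35e-10).

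HSPA1L, a gene of the HSP70 family best known from the testis, starts 260 bases from HSPA1A on the opposite strand of chromosome 6 (31809619 to 31815283). Its level was low: 48.3, 64.2, 36.6 and 73.5 normalized counts in complete medium, 88.8 and 80.7 in cysteine-free and 34.7, 25.0, 27.3 and 15.3 in excess medium. The excess values lay below the complete ones and both cysteine-free values above them. It fell by 1.10 in excess medium (limma, adjusted p = 2.50e-03), a call lost without complete replicate 2 (adjusted p = 0.0109) or excess replicate 4 (adjusted p = 0.01003). In cysteine-free medium its log2 fold change of 0.65 was not called (limma, adjusted p = 0.101). The direct difference of cysteine-free from excess medium was 1.74 (limma, adjusted p = 1.48e-05). Because HSPA1L resembles HSPA1A and its counts are small, reads assigned to the wrong copy cannot be told apart here.

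Both HSP90 genes fell in both media. HSP90AB1, the constitutive form, had 79991, 73010, 75450 and 69882 normalized counts in complete medium, 51580 and 51997 in cysteine-free medium and 34865, 36645, 36698 and 36834 in excess medium. It fell by 0.52 in cysteine-free (standard error 0.0515) and by 1.04 in excess medium (standard error 0.0387), both called by limma. HSP90AA1, the more inducible form, fell by 0.55 to 68.1% of the complete level in cysteine-free and by 0.96 to 51.5% in excess medium. Each was lower in excess than in cysteine-free medium, by 0.51 for HSP90AB1 and 0.40 for HSP90AA1 on the log2 scale.

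Divided by the length of the merged exons in kilobases, the HSP90 genes were among the highest of the set. In complete medium HSP90AB1 had a mean of 25028 and HSP90AA1 of 17344 normalized counts per kilobase, against 80579 for the HSPA1A and HSPA1B pair and 15732 for HSPA8. In excess medium the order was different: HSP90AB1 had 12168 and HSP90AA1 8919 per kilobase, above the pair at 5985 and HSPA8 at 4618. The values of the pair are the sum of both genes over their mean exon length, set beside single genes. Its place in the order depends on that sum. UBB, one of the genes that encode ubiquitin as a chain of repeats, had 26120 per kilobase in complete and 26774 in excess medium. Its log2 fold changes were -0.10 in cysteine-free medium (limma, adjusted p = 0.147) and 0.036 in excess medium (limma, adjusted p = 0.453), and equal totals gave a call in excess medium at 0.14 (limma, adjusted p = 5.60e-04).

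The small heat shock proteins, which hold unfolded proteins without using ATP, did not move together. HSPB1 (HSP27) fell by 0.77 in excess medium (limma, adjusted p = 2.23e-08), from 2181 ± 189 (SD, n = 4) to 1278 ± 68.2 (SD, n = 4), and its value of -0.22 in cysteine-free medium was not called (limma, adjusted p = 0.0601). Leaving out complete replicate 4 gave -0.29 and a call (limma, adjusted p = 4.56e-03). HSPB8, which works with BAG3 in the removal of misfolded proteins by autophagy, had 162, 169, 235 and 184 normalized counts in complete medium. It had 112 and 100.3 in cysteine-free medium and 529, 545, 562 and 514 in excess medium, so the groups did not overlap. It fell by 0.80 in cysteine-free medium (limma, adjusted p = 3.77e-03) and rose by 1.53 in excess medium (limma, adjusted p = 2.21e-09), to 2.89 times the complete level. With 1 cysteine-free library in the fit its log2 fold change was -0.88 without replicate 1 and -0.73 without replicate 2, and neither was called (limma, adjusted p = 0.0325 and 0.0663). Leaving out complete replicate 2 gave -0.85 and no call (limma, adjusted p = 0.0105).

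The J proteins, which bring substrates to HSP70 and start its ATP cycle, included members that fell and one that rose. DNAJB1 (HSP40), the classical inducible J protein, had 5125, 4845, 3528 and 5435 normalized counts in complete medium, 2919 and 2864 in cysteine-free and 2174, 2218, 2353 and 2415 in excess medium. The low complete value is replicate 3, still above every value of the other media. DNAJB1 fell by 0.69 in cysteine-free (limma, adjusted p = 1.13e-03) and by 1.03 in excess medium (limma, adjusted p = 7.72e-08). DNAJA1 changed by -0.76 and -0.66 and DNAJB6, a suppressor of polyglutamine aggregation, by -0.24 and -0.26 in cysteine-free and excess medium.

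DNAJB4, a relative of DNAJB1, had 602, 682, 602 and 632 normalized counts in complete medium, 502 and 495 in cysteine-free and 1033, 1134, 1063 and 958 in excess medium. It rose by 0.73 in excess medium (standard error 0.0675, limma, adjusted p = 7.51e-08). In cysteine-free medium its value of -0.33 was not called (limma, adjusted p = 0.0156), although both libraries lay below the complete ones; it was called when all 3 groups were fitted together (adjusted p = 3.83e-03) or without complete replicate 3 (adjusted p = 6.72e-03). The direct difference of cysteine-free from excess medium was -1.07. With 1 cysteine-free library in the fit DNAJB1 was at -0.71 and -0.68 and DNAJB6 at -0.26 and -0.22, close to their values with both, and none of these was called. DNAJB6 was also not called without complete replicate 1, at -0.23 (limma, adjusted p between 0.0106 and 0.0673 for all 5). DNAJB1 shares exon bases with TECR and DNAJB4 with GIPC2.

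**Figure D2:**
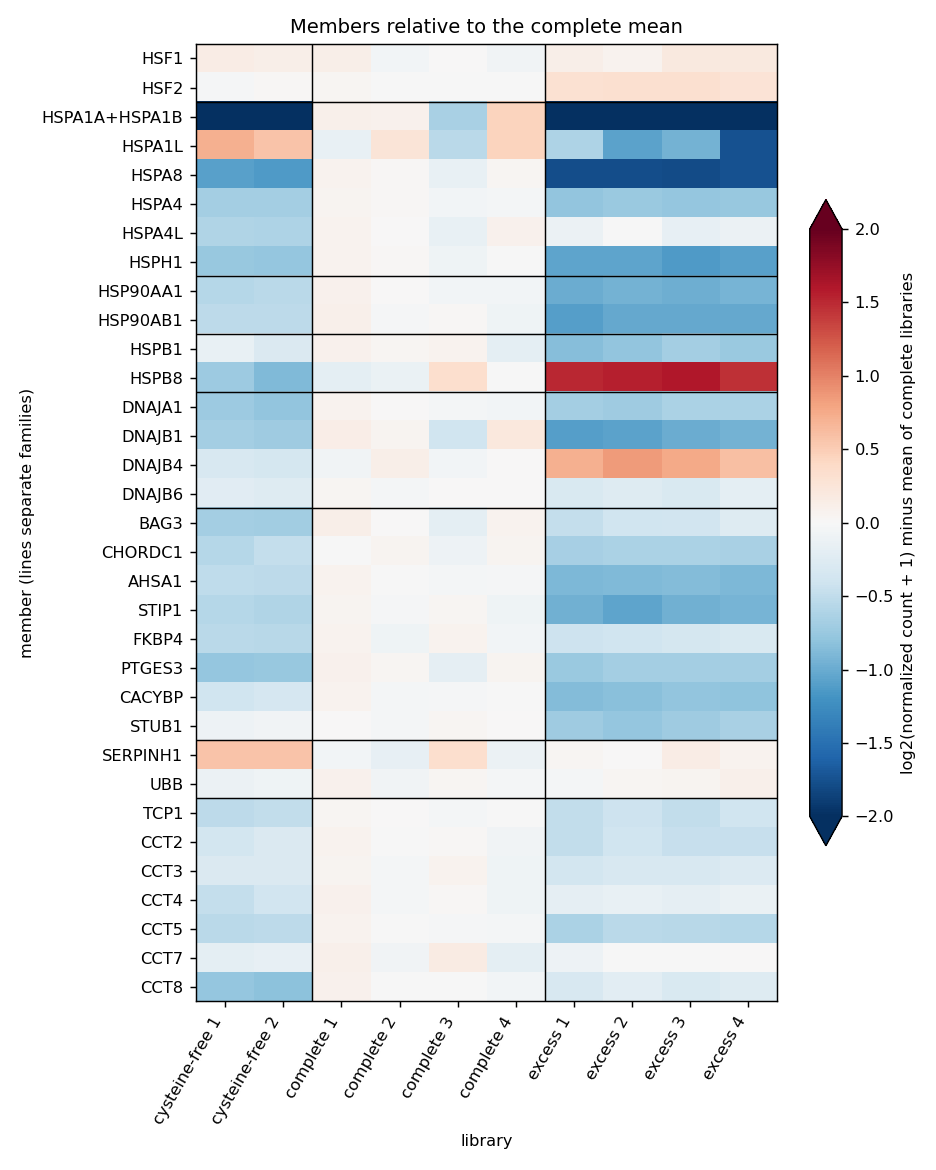
Log2(normalized count + 1) of each tested member in each library minus the mean of the 4 complete libraries, with blue below and red above; colours saturate at a difference of 2, which the HSPA1A+HSPA1B pair exceeds in both other media. Blue covers most rows in the cysteine-free and excess libraries, with red for HSPB8 and DNAJB4 in excess and for HSPA1L and SERPINH1 in cysteine-free medium.

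Of the 8 cochaperones, 7 fell in cysteine-free medium and 8 in excess medium, with medians of -0.54 and -0.70 on the log2 scale. Called lower were 8.51% and 22.9% of all features, and 19.3% and 39.2% of those with a mean of 1000 or more. STIP1 (HOP), which hands substrates from HSP70 to HSP90, had 18276, 17345, 18129 and 16571 normalized counts in complete, 11818 and 11630 in cysteine-free and 9024, 8475, 9047 and 9172 in excess medium. It changed by -0.58 and -0.98 (limma, standard errors 0.0508 and 0.0399). AHSA1, the activator of the HSP90 ATPase, changed by -0.51 and -0.89, and CACYBP, a protein that binds the ligase component SIAH1, by -0.37 and -0.83. All 3 were lower in excess than in cysteine-free medium, by 0.37 to 0.45 on the log2 scale, each called by limma. Without cysteine-free replicate 1, CACYBP was at -0.34 and not called (limma, adjusted p = 0.0148).

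Among the other cochaperones, PTGES3 (p23), which stabilises the closed form of HSP90, changed by -0.76 in cysteine-free and -0.70 in excess medium, and CHORDC1 by -0.53 and -0.64. BAG3, the stress-inducible partner of HSP70 and HSPB8, changed by -0.69 and -0.38, from 2550 ± 229 (SD, n = 4) to 1579 ± 3.55 (SD, n = 2) and 1958 ± 123 (SD, n = 4). The prolyl isomerase FKBP4 changed by -0.55 and -0.37. For BAG3 and FKBP4 the cysteine-free level was below the excess level by 0.31 and 0.18 (limma, adjusted p = 4.97e-05 and 2.90e-04). STUB1 (CHIP), the ubiquitin ligase that acts on chaperone clients, fell by 0.71 in excess medium and was at -0.088 in cysteine-free medium (limma, adjusted p = 0.217). STUB1 shares much of its exon sequence with JMJD8 on the other strand.

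SERPINH1 (HSP47) folds collagen in the endoplasmic reticulum and so is not a cytosolic chaperone, although it is a known heat shock gene. HSPA1L had a log2 fold change of 0.65 in cysteine-free medium and was not called. SERPINH1 was the 1 member called higher in that medium. Its normalized counts were 3777 and 3786 there, 2447, 2280, 3242 and 2354 in complete and 2635, 2574, 2819 and 2684 in excess medium. It rose by 0.57 (standard error 0.110, limma, adjusted p = 1.85e-03) and was at 0.067 in excess medium (limma, adjusted p = 0.512). With 1 cysteine-free library in the fit its log2 fold change was 0.57 and 0.56, and without complete replicate 1 or 2 it was 0.55 and 0.51, none of them called (limma, adjusted p between 0.0117 and 0.0437). DESeq2 gave 0.55 and no call (adjusted p = 0.0114). The value in excess medium was called without complete replicate 3, at 0.18 (limma, adjusted p = 2.76e-03).

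The 7 CCT subunits measured here make up most of the ring that folds actin and tubulin. In cysteine-free medium 6 of them fell, the 7 having a median of -0.43 and a range from -0.79 to -0.18, and in excess medium 6 fell, with a median of -0.32 and a range from -0.57 to -0.03. Of all features with a mean of 1000 or more, 19.3% were called lower in cysteine-free and 39.2% in excess medium. CCT8 had 14966, 14012, 14036 and 13665 normalized counts in complete, 8305 and 8022 in cysteine-free and 11338, 12171, 11518 and 11891 in excess medium. It fell by 0.79 in cysteine-free (standard error 0.0506, limma) and by 0.27 in excess medium, with the cysteine-free level 0.52 below the excess level (limma, adjusted p = 1.79e-11).

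CCT5 changed by -0.53 and -0.57, TCP1 (CCT1) by -0.50 and -0.45, CCT2 by -0.33 and -0.45 and CCT3 by -0.29 and -0.32 in cysteine-free and excess medium. CCT4 fell by 0.43 in cysteine-free medium and by 0.16 in excess medium, where equal totals gave -0.055 and no call (limma, adjusted p = 0.124). CCT7 was not called in either medium, at -0.18 and -0.03, the latter turning to 0.075 with equal totals. Without complete replicate 4, CCT7 was called in cysteine-free medium at -0.25 (limma, adjusted p = 4.75e-03). Without cysteine-free replicate 1 CCT2, CCT3 and CCT4 were at -0.29, -0.28 and -0.38 in cysteine-free medium and not called, and without replicate 2 CCT2 and CCT3 were at -0.36 and -0.29 and not called (limma, adjusted p between 0.0110 and 0.0321).

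Cysteine-free and excess medium were also compared with each other, without the complete libraries. Of 33 members, 14 were higher in cysteine-free medium and 10 lower, against 23.6% and 24.4% of all features and 48.0% called in either direction. Calls were more common among the 8792 features with a mean of 1000 or more. Of those, 3108 were called higher, 2962 lower (33.7%) and 2722 not called, so the counts of the members are near these. The median log2 difference was 0.045 over the members and -1.58e-05 over all features. Differences of 1 or more were called higher for 2 members (5.42% of all features) and lower for 2 (7.01%). All cysteine-free values lay above all excess values for 17 members (33.1%) and below them for 12 (32.9%). The higher members were the pair, HSPA1L, HSPA8, HSPH1, both HSP90 genes, HSPB1, DNAJB1, AHSA1, STIP1, CACYBP, STUB1, SERPINH1 and CCT2. The lower ones were HSF2, HSPA4L, HSPB8, DNAJB4, BAG3, FKBP4, UBB, CCT4, CCT7 and CCT8. The largest differences were in HSPB8 (-2.33, limma), HSPA1L (1.74), the pair (1.46) and DNAJB4 (-1.07). CCT2, at 0.12, lost its call without cysteine-free replicate 2 (0.090, limma, adjusted p = 0.137) and without excess replicate 1, 3 or 4. UBB lost its call without either cysteine-free library, and CCT7 without cysteine-free replicate 1 (limma, adjusted p between 0.0116 and 0.0283). With 3 groups in one fit 20 members were called, and DNAJB1 (adjusted p = 0.0152), UBB (0.0165), CCT2 (0.0303) and CCT7 (0.0665) were not. With equal totals 13 members were called higher and 13 lower.

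Other genes of the chaperone system were read from lists written from general knowledge. Of 24 further HSP70 system genes, 9 fell and 3 rose in cysteine-free medium and 6 fell and 6 rose in excess medium, with medians of -0.14 and 0.022. The shares called over all features were 8.51% lower and 7.39% higher in cysteine-free medium, and 22.9% lower and 23.1% higher in excess medium, so the counts in excess medium are near those shares. HSPA6, a strictly inducible HSP70, had a mean of 37.6 normalized counts in complete and 10.1 in cysteine-free medium, a log2 fold change of -1.87 (limma, adjusted p = 1.93e-03), and in excess medium its value of -0.93 was not called (limma, adjusted p = 0.0262). DNAJA4 fell by 1.55 in cysteine-free medium and rose by 1.03 in excess medium. HSPA13, an HSP70 of the microsomes, rose by 0.47 and 1.34, from 3345 ± 267 (SD, n = 4) to 8428 ± 303 (SD, n = 4) in excess medium.

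The same shares of all features apply to the lists that follow. Many of the listed genes are abundant, and of features with a mean of 1000 or more 19.3% were called lower in cysteine-free and 39.2% in excess medium. Of 12 further HSP90 system genes, 4 fell and 1 rose in cysteine-free medium, and 6 fell and 1 rose in excess medium, with medians of -0.12 and -0.13. Of 10 further CCT and prefoldin genes, 5 fell and 1 rose in cysteine-free medium, and 7 fell in excess medium. The 1 that rose was CCT6B, the testis form of a CCT subunit, by 1.43 from a mean of 40.2 to 106.1. CCT6A, with a mean of 15733 in complete medium, fell by 0.61 in cysteine-free and by 0.62 in excess medium, both called by limma. PDCL3, a cofactor of CCT, fell by 1.06 in excess medium. A list of 7 further genes held small heat shock and factor genes together with HSBP1 and MRPL18, which are neither, and 4 were tested. The 2 that fell in cysteine-free medium were HSBP1 (-0.41) and MRPL18 (-0.29). HSPB6 and HSF4 were not called there (limma, adjusted p = 0.894 and 0.128). In excess medium 3 fell, HSBP1 (-0.65), MRPL18 (-0.69) and HSF4, and HSPB6 rose by 2.13, from a mean of 26.4 to 115.9. HSF4, a heat shock factor of the lens, fell by 0.77 in excess medium. Its direct difference of cysteine-free from excess medium was 1.04 (limma, adjusted p = 3.40e-08).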

How the data were processed

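Gene expression was measured by poly(A) RNA sequencing with paired reads in 10 HEK293T libraries. The authors aligned the reads with STAR, counted them per gene and deposited normalized counts, a signal equal to reads divided by the DESeq2 size factor of the library. All values were whole multiples of what 1 read is worth (tolerance 0.001), so reads were recovered for depth and for count tests. The limma p-values set a difference against the spread between these libraries, drawn toward a trend over all features. In comparisons with the cysteine-free group most of that spread comes from the libraries of the other group.

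Gene names came from GENCODE 44. HSPA1A and HSPA1B were summed, and features with a value of at least 10 in 3 libraries or more were kept (29044 features). Each pair of media was fitted with limma 3.58.1 in R 4.3.3 on log2(value + 1) with a trended prior, 2-sided, with Benjamini-Hochberg adjustment over all features and a threshold of 0.01. The fit was tested on simulated data. Fold changes on this scale are understated for low genes. Values in every library were given for the pair, HSF1, HSF2, members called with groups apart and a change of 1 or more, and the largest change in each family. SERPINH1 was added after its values were seen. The members and lists were chosen with earlier results on these data known. Alternatives were a pseudocount of 10, no filter, equal totals, 3 groups in one fit, a replicate block, leaving out each library, HSPA1A and HSPA1B apart, and count tests on recovered reads. edgeR 4.0.16 called 4944 features in cysteine-free and 13527 in excess against complete medium, and DESeq2 1.42.0 called 5434 and 13815. Deviations of same-numbered libraries from their group means had correlations of -0.028 to 0.039 over all features. No pairing by number was seen, but such correlations cannot exclude a shared culture behind the numbers. Promoters came from a RefSeq table on GRCh38.p14.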

Additional observations from a re-analysis of the deposited data

Results flagged for a closer look

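Among 68 groups of 4 libraries of the members, 5 had 1 library far from the other 3, by the gap to its neighbour divided by the range of the group set against the 95% critical value of Dixon, and chance gives about 3.4. HSF2 was highest in complete replicate 1 (2001 against 1927 to 1932, ratio 0.929). HSPB1 was lowest in complete replicate 4 (1899 against 2245 to 2302, ratio 0.857). Excess replicate 1 was lowest for HSP90AB1 (34865 against 36645 to 36834, ratio 0.904), PTGES3 (12029 against 12557 to 12610, ratio 0.910) and CCT7 (18709 against 19838 to 20046, ratio 0.844).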

How the results depend on the processing

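The changes of the HSPA1A and HSPA1B pair kept direction and call under every alternative run. Leaving out 1 library at a time gave -2.46 to -2.09 in cysteine-free and -3.92 to -3.55 in excess against complete medium, and 1.37 to 1.56 for cysteine-free against excess medium. In these leave-one-out fits the number of features called in cysteine-free against complete medium ran from 980 to 6301, with 1201 without cysteine-free replicate 1, 980 without replicate 2, 2973 without complete replicate 1 and 2807 without complete replicate 2, fits with fewer samples. Members called in them ran from 17 to 27 there, 27 to 30 in excess against complete medium and 22 to 24 between cysteine-free and excess medium, where 3 groups in one fit gave 20 and equal totals 26. Values that changed sign were not called. With equal totals these were HSPA4L (0.0033) and CCT7 (0.075) in excess against complete medium, and DNAJB6 (-0.056), CCT3 (-0.046) and CCT5 (-0.036) in cysteine-free against excess medium. Leaving out 1 library gave -0.021 to 0.024 for HSF2 in cysteine-free and -0.096 to 0.023 for CCT7 in excess against complete medium, and -0.035 to 0.0077 for HSF1 in cysteine-free against excess medium. The replicate numbers did not pair the libraries; with a replicate block HSF2 was at -0.010 in cysteine-free against complete and HSF1 at 0.035 in cysteine-free against excess medium, and the pair at -2.34, -3.70 and 1.52. The block called 6532, 13392 and 12392 features and 27, 28 and 24 members. In cysteine-free against complete medium it added HSPB1 (-0.29, limma, adjusted p = 1.15e-03) and DNAJB4 (-0.36, limma, adjusted p = 4.14e-03). In blocked fits with the cysteine-free group, replicates 3 and 4 of the other medium had no partner and did not inform the group difference. Little spread was left to test against there, so the added calls carry little weight. The cause of the shifts between settings was not tested. With 2 cysteine-free libraries, that group's spread rests on 1 difference.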

Other observations

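Of 7 chaperones of other compartments, 5 fell in cysteine-free and 4 fell and 2 rose in excess against complete medium. Of all features, 8.51% were called lower in cysteine-free medium, and 22.9% lower and 23.1% higher in excess medium. Of features with a mean of 1000 or more, 19.3% were called lower in cysteine-free and 39.2% in excess medium. HSPA5 (BiP), the HSP70 of the endoplasmic reticulum, fell by 0.35 in cysteine-free medium (limma, adjusted p = 1.14e-04) and rose by 0.71 in excess medium (limma, adjusted p = 9.50e-12). DNAJB11, a J protein that works with it, fell by 0.35 and rose by 0.36. HSPE1, the mitochondrial HSP10, fell by 0.91 in cysteine-free medium and was at -1.47 in excess medium, and its partner HSPD1 (HSP60) was at -0.44 and -0.93, all called by limma.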
